A study of Mus musculus with 6 samples.

Results

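The genes described here are 10 genes of pericellular matrix proteolysis and matrix, chosen by symbol from the 24054 genes of the deposited tables: Plau, Plaur, Mmp12, Mmp14, Mmp8, Adam8, Timp2, Tnc, Col18a1 and Sdc1. All 10 are in both tables and passed the filter on low counts. They were measured in bone marrow-derived macrophages grown for 7 days with L929-conditioned medium, a source of macrophage colony-stimulating factor. The cells then spent 24 hours in oxidised low-density lipoprotein (oxLDL) at 50 µg/ml, or went untreated. The groups were Kindlin3-integrin mutant cells on C57BL/6 with oxLDL (2 libraries), the same mutant untreated (2), wild-type C57BL/6 cells with oxLDL (1) and wild-type untreated (1). KI appears in the titles of the mutant libraries, and the labels say nothing more of the mutation. Kindlin-3, encoded by Fermt3, is the kindlin of blood cells, which binds the tails of integrins and activates them. The labels do not say whether libraries came from separate animals or cultures, so every p-value here measures only the spread between these libraries, which may be technical.

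Macrophages cut their surroundings with proteases that work at or near the cell surface. Urokinase, bound to its receptor, turns plasminogen into plasmin, which degrades fibrin and activates latent enzymes. Matrix metalloproteinases and ADAM proteases cut elastin, collagens and membrane proteins, TIMPs inhibit them, and syndecans, collagen XVIII and tenascin-C belong to the coat that these enzymes act on. In atherosclerotic plaques macrophage proteases are known for their part in thinning the fibrous cap.

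Levels are given as the authors' normalised read counts (CPM), scaled to library size and by the trimmed mean of M-values. The 10 genes were chosen by function and with earlier results of these 6 libraries in view. Their fold changes and adjusted p-values therefore describe where each gene lies among all 12689 genes tested, and are not independent evidence for a pattern among them. In bulk RNA, fewer cells expressing a gene and less RNA per cell cannot be told apart.

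Reads assigned to genes came to between 11281692 and 24273551 per library. Fermt3 measured 146 and 153 CPM in mutant oxLDL against 188 CPM in wild type oxLDL (log2 fold change -0.33 ± 0.11 SE, edgeR adjusted p = 0.260). Without oxLDL it was lower in the mutant, at 239 and 248 CPM against 404 CPM in wild type (-0.72 ± 0.11, adjusted p = 0.0264). All 9 macrophage markers looked for were detected, and their summed level was 19563 and 14492 CPM with oxLDL in the mutant, 30233 and 24101 CPM in mutant untreated, 10206 CPM in wild type oxLDL and 20660 CPM in wild type untreated. The 10 fibroblast markers summed to 1.59 and 1.54 CPM in mutant oxLDL against 4.03 and 3.73 CPM in mutant untreated. In wild type they summed to 0.384 CPM with oxLDL and 3.07 CPM without. Col1a1 was among those that went the other way in the mutant, at 0.408 and 0.695 CPM with oxLDL against 0 without. The part of the fibroblast markers in the levels of the 10 genes was not tested. Transcripts of the pancreas stood out in 3 libraries: 12 pancreatic markers summed to 176 and 140 CPM with oxLDL in the mutant and to 238 CPM without it in wild type, whereas the other 3 libraries held no more than 0.0704 CPM. These 3 libraries are split across the design so that presence of pancreatic transcripts cannot be told apart from the interaction of genotype and oxLDL. Within either genotype it also cannot be told apart from oxLDL, and within either treatment not from genotype. The wild type untreated library, the only baseline reference, also held the neutrophil genes Ngp, S100a9 and Ltf at 12.5, 9.93 and 8.29 CPM, against at most 0.211 CPM in each other library.

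Upstream DNA from the RefSeq table of GRCm38.p6 promoters is shown for Mmp12, highest in the oxLDL libraries, for Plaur, the other member whose window holds AP-1 letters, and for Sdc1, with the largest interaction. For the counts, the labels' sources give no mouse build. Each sequence is the 250 bases before the annotated start, on the plus strand, with capitals marking the AP-1 letters TGANTCA and the core of the macrophage factor PU.1, GAGGAA or its reverse TTCCTC. The sequence of Mmp12 lies at chr9:7347124-7347373 and belongs to the downstream of its 2 annotated starts. That of Plaur lies at chr7:24462233-24462482 and that of Sdc1 at chr12:8771146-8771395.
Mmp12: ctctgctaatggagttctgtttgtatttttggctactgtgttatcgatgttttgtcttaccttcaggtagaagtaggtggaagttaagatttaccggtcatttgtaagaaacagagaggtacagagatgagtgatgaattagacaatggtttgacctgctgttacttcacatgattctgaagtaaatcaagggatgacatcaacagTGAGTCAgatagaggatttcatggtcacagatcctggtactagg
Plaur: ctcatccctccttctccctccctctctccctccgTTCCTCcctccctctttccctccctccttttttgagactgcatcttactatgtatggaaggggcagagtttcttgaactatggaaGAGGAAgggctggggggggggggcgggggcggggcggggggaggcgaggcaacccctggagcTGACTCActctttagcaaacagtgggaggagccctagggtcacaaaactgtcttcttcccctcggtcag
Sdc1: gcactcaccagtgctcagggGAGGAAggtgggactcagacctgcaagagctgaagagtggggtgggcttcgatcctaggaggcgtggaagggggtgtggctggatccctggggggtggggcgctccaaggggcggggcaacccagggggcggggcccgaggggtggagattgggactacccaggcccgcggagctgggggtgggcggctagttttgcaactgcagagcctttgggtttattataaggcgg

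Searched on both strands over windows of 300 bases that run on past the start, AP-1 letters were found for 2 of the 9 members with an entry, Mmp12 and Plaur. Counted by window, as the background is, they were in 2 of the members' 12 windows and in 7.81% of all 32851 promoter windows of that length. PU.1 letters were found for 5 of the 9 members, in 6 of the 12 windows and in 28.3% of all windows. The core of the antioxidant response element, TGACNNNGC or its reverse GCNNNGTCA, was found for 1 of the 9, Timp2, in 1 of the 12 windows and in 12.4% of all windows. The pair of Tnc windows overlap each other, and that of Mmp12 holds AP-1 letters in 1 of 2. These letter matches do not overlap each other in the sequences shown, and a match of letters says nothing of binding.

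Macrophage elastase, Mmp12, cuts elastin and was the one gene of the 10 that rose with oxLDL in the mutant. It measured 601 and 643 CPM in mutant oxLDL against 148 and 107 CPM in mutant untreated, and 1513 CPM in wild type oxLDL against 49.2 CPM in wild type untreated. All 3 oxLDL libraries lay above all 3 untreated ones, an arrangement found for 25.0% of all genes tested. In the mutant the increase was 4.83-fold, a log2 fold change of 2.27 ± 0.18 (SE; edgeR adjusted p = 0.000657), with means of 622 ± 30.0 CPM with oxLDL and 127 ± 28.8 CPM without (SD, n = 2 each). In the wild-type pair the ratio was 30.7, with no replicate check. The mutant response was the smaller, with an interaction, mutant response minus wild-type response, of -2.67 ± 0.30 in log2 units (adjusted p = 0.0347). Mmp12 was higher in the mutant than in wild type without oxLDL (1.38 ± 0.22, adjusted p = 0.0303), while with oxLDL the mutant libraries lay below the wild-type one (-1.29 ± 0.20, adjusted p = 0.0774). Pancreatic transcripts were present in the wild type untreated and mutant oxLDL libraries and at most 0.0704 CPM in sum in the others, so the interaction cannot be told apart from them.

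Membrane type 1 metalloproteinase, Mmp14, anchored in the plasma membrane, cuts collagen and activates pro-MMP2. It fell with oxLDL, to 90.7 and 64.3 CPM in mutant oxLDL against 328 and 283 CPM in mutant untreated, and measured 33.4 CPM in wild type oxLDL against 135 CPM in wild type untreated. Every oxLDL library lay below every untreated one, as for 22.8% of genes tested. The log2 fold change was -1.99 ± 0.18 in the mutant (adjusted p = 0.00105) and -2.01 in the wild-type pair, and the interaction was 0.02 ± 0.31 (adjusted p = 0.995). Between the genotypes the log2 fold change of mutant over wild type was 1.21 ± 0.24 with oxLDL (adjusted p = 0.113) and 1.19 ± 0.23 without (adjusted p = 0.0399). With treatment as a covariate Mmp14 was 2.30-fold higher in the mutant (1.201 ± 0.16, adjusted p = 0.0244).

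The other collagenase of the set, Mmp8, is best known from neutrophil granules. It measured 10.7 and 4.37 CPM with oxLDL in the mutant, 13.1 and 10.4 CPM in mutant untreated, 5.12 CPM in wild type oxLDL and 8.35 CPM in wild type untreated. The mutant oxLDL pair differed 2.45-fold and overlapped the untreated pair. Its change with oxLDL in the mutant was -0.64 ± 0.41 (adjusted p = 0.273), which passed without mutant oxLDL replicate 1 (-1.44, adjusted p = 0.00512). The wild type untreated library, which holds the neutrophil genes, lay below both mutant untreated libraries in Mmp8, and the part of neutrophil RNA in these levels was not tested. Mmp8 and Mmp12 lie in a cluster of metalloproteinase genes on chromosome 9 in GRCm38. Its other members Mmp1b, Mmp3 and Mmp7 had 0 counts in all 6 libraries, and Mmp13 and Mmp27 measured at most 7.43 and 6.40 CPM.

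Adam8 encodes a membrane protease of leukocytes that sheds surface proteins. It measured 506 and 466 CPM in mutant oxLDL against 949 and 878 CPM in mutant untreated, and 720 CPM in wild type oxLDL against 474 CPM in wild type untreated. The mutant level fell by 0.92 ± 0.11 on the log2 scale (adjusted p = 0.00259), while the wild-type library with oxLDL was 1.52 times the one without. The difference between these responses was -1.53 ± 0.20 (adjusted p = 0.0528). It passed in 6 of 12 alternatives, DESeq2 and limma among them, with adjusted p over the 12 between 8.91e-10 and 0.160. Without oxLDL the mutant was 1.94-fold higher than wild type (0.96 ± 0.14, adjusted p = 0.0283), and with oxLDL the log2 fold change was -0.57 ± 0.14 (adjusted p = 0.169).

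Plau, urokinase, was the one gene of the 10 whose levels separated the genotypes in every library. It measured 111 and 96.8 CPM with oxLDL in the mutant and 171 and 175 CPM in mutant untreated, against 65.9 CPM in wild type oxLDL and 25.3 CPM in wild type untreated. All 4 mutant libraries lay above both wild-type ones, as for 8.35% of genes tested, with 7.93% the other way round. Without oxLDL the mutant was 6.88-fold higher (2.78 ± 0.14, adjusted p = 0.00398). With oxLDL it was 1.57-fold higher (0.65 ± 0.13, adjusted p = 0.114). In the mutant Plau fell with oxLDL (-0.75 ± 0.10, adjusted p = 0.00346), whereas the wild-type library with oxLDL held 2.60 times the level of the one without. The interaction was -2.13 ± 0.18 (adjusted p = 0.0140), again aligned with the libraries that hold pancreatic transcripts.

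Its receptor, Plaur, measured 25.6 and 16.2 CPM with oxLDL in the mutant and 17.0 and 17.0 CPM in mutant untreated, against 21.9 CPM in wild type oxLDL and 3.69 CPM in wild type untreated. The wild type untreated library was the low one and the other 5 lay within 16.2 to 25.6 CPM. Mutant untreated cells were 4.63-fold above wild type untreated (2.21 ± 0.33, adjusted p = 0.0282), and with oxLDL the difference was -0.07 ± 0.28 (adjusted p = 0.930). In the mutant the change with oxLDL was 0.29 ± 0.23 (adjusted p = 0.375), which was -0.078 without mutant oxLDL replicate 1 and passed as higher without replicate 2 (0.58, adjusted p = 0.0336). The wild-type ratio of oxLDL to untreated was 5.94, and the interaction was -2.28 ± 0.42 (adjusted p = 0.145). That interaction passed in 5 of 12 alternatives.

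Timp2, the secreted inhibitor that also takes part in the activation of pro-MMP2 by Mmp14, passed in none of the 6 comparisons tested. It measured 426 and 361 CPM with oxLDL in the mutant, 496 and 367 CPM in mutant untreated, 371 CPM in wild type oxLDL and 364 CPM in wild type untreated. The groups overlapped, with 1.18-fold between the highest and lowest oxLDL library and 1.36-fold between the untreated ones. Its change with oxLDL in the mutant was -0.15 ± 0.17 (adjusted p = 0.540), and its difference between the genotypes without oxLDL was 0.26 ± 0.21 (adjusted p = 0.488).

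**Figure D1:**
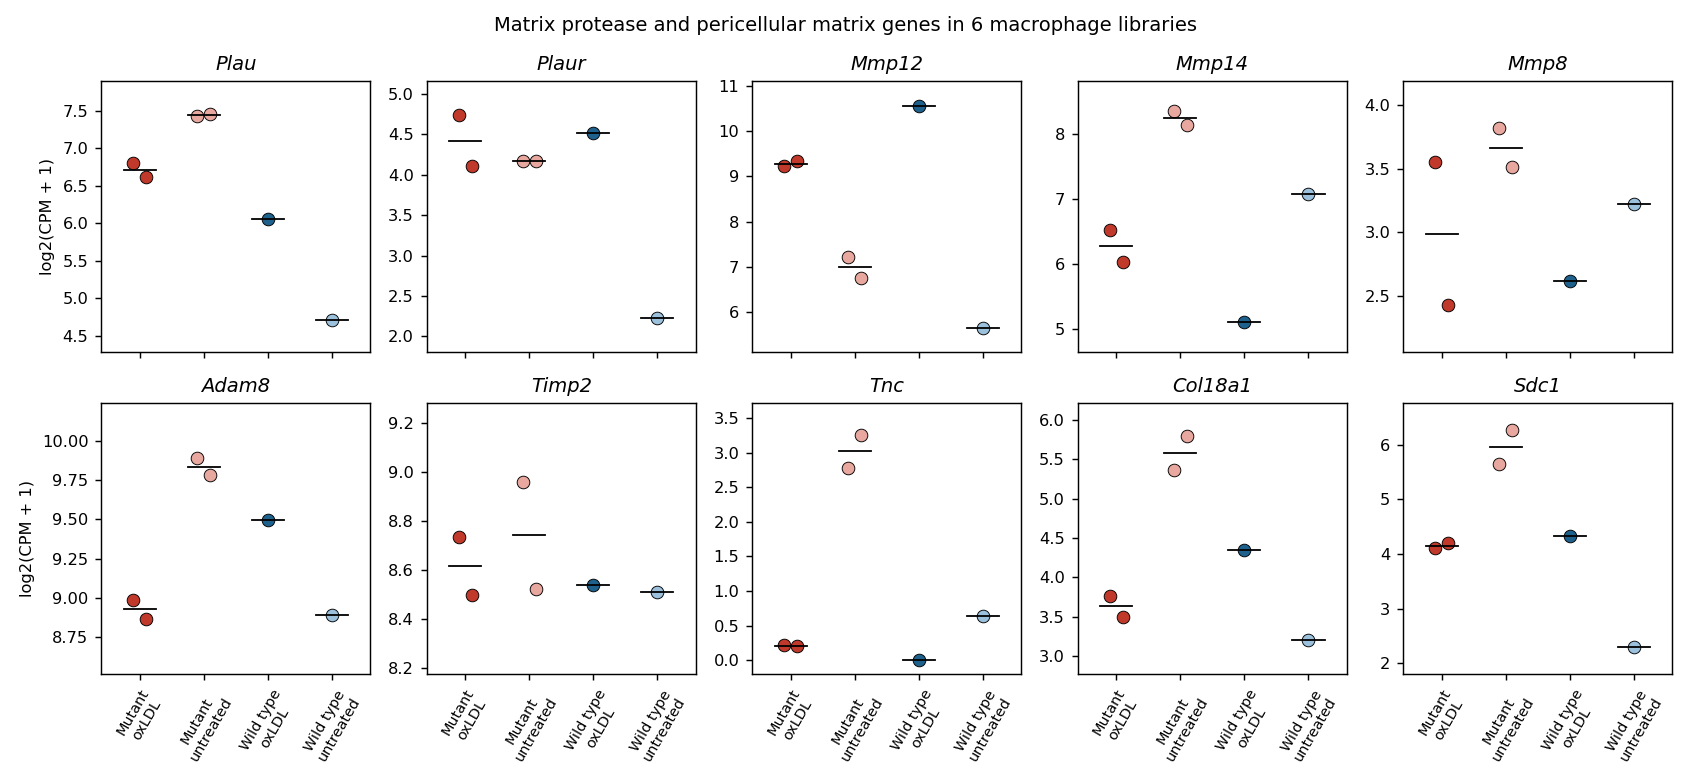
Level of each gene, as log2(CPM + 1) on a vertical axis of its own for each gene, in mutant oxLDL (2 libraries), mutant untreated (2), wild type oxLDL (1) and wild type untreated (1). Points are libraries and lines are group means of the plotted values. Mmp12 is highest in the 3 oxLDL libraries, Mmp14 and Tnc are lowest there, and Sdc1, Col18a1 and Plaur are lowest in wild type untreated.

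Tenascin-C, the matricellular glycoprotein encoded by Tnc, was highest in untreated mutant cells. It had 4 and 3 counts (0.163 and 0.149 CPM) in mutant oxLDL against 67 and 122 counts (5.87 and 8.59 CPM) in mutant untreated. Wild type oxLDL had 0 counts, and wild type untreated 11 counts (0.563 CPM). All 3 oxLDL libraries lay below the untreated ones, as for 22.8% of genes tested. In the mutant Tnc fell with oxLDL (edgeR adjusted p = 0.000732). The size of that fall rests on 7 counts in all with oxLDL against 189 without, a ratio of 47.1 with an exact 95% interval of 22.4 to 118.7 that covers counting error only. The fitted log2 fold change was -5.48 ± 0.44, and limma on log2 values with a pseudocount of 1 or 0.1 gave -2.81 and -4.81. In the wild-type pair Tnc was at least 2.93-fold lower with oxLDL if the untreated level, 0.563 CPM from 11 counts, is exact. The floor of the oxLDL library was taken as 3 counts, 0.192 CPM. The counting error of the 11 counts and the spread between libraries are not covered. Without oxLDL the mutant was 12.8-fold above wild type (3.68 ± 0.50, adjusted p = 0.0227). With oxLDL the mutant levels lay at or below the floor of the wild-type library, and no fold is given.

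Col18a1 encodes collagen XVIII, a heparan sulfate proteoglycan of basement membranes whose end fragment is endostatin. It measured 12.6 and 10.3 CPM in mutant oxLDL against 40.2 and 54.4 CPM in mutant untreated, and 19.4 CPM in wild type oxLDL against 8.19 CPM in wild type untreated. The mutant fell 4.17-fold with oxLDL (-2.06 ± 0.19, adjusted p = 0.00110), whereas the wild-type ratio was 2.37. The interaction was -3.30 ± 0.34 (adjusted p = 0.0282). The mutant was 5.82-fold above wild type without oxLDL (2.54 ± 0.26, adjusted p = 0.0128), and with oxLDL the log2 fold change was -0.76 ± 0.23 (adjusted p = 0.230). Col18a1 overlaps Slc19a1 on the other strand, and the sources used here do not say whether counting used strand. Slc19a1 itself measured between 4.25 and 7.60 CPM in every library.

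Sdc1, syndecan-1, carries heparan sulfate chains at the cell surface. Its level was 16.3 and 17.3 CPM in mutant oxLDL against 48.9 and 76.0 CPM in mutant untreated, and 19.2 CPM in wild type oxLDL against 3.94 CPM in wild type untreated. The mutant fell 3.76-fold (-1.91 ± 0.22, adjusted p = 0.00209), the wild-type ratio was 4.87, and the interaction of -4.19 ± 0.41 (adjusted p = 0.0236) was the largest in size of the 9 for which a fold is given. Mutant untreated cells held 15.9 times the wild-type level (3.99 ± 0.34, adjusted p = 0.00880), and with oxLDL the difference was -0.20 ± 0.27 (adjusted p = 0.780). Sdc1 also marks plasma cells. Of 7 plasma and B cell markers 3 had 0 counts in all 6 libraries, the plasma cell gene Mzb1 and the B cell gene Pax5 among them. The 7 summed to 1.18 and 1.24 CPM with oxLDL in the mutant against 5.34 and 12.6 CPM in mutant untreated, and to 4.03 CPM in wild type oxLDL against 25.5 CPM in wild type untreated, nearly all of it Cd79b. Their part in the levels of Sdc1 was not tested.

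**Figure D2:**
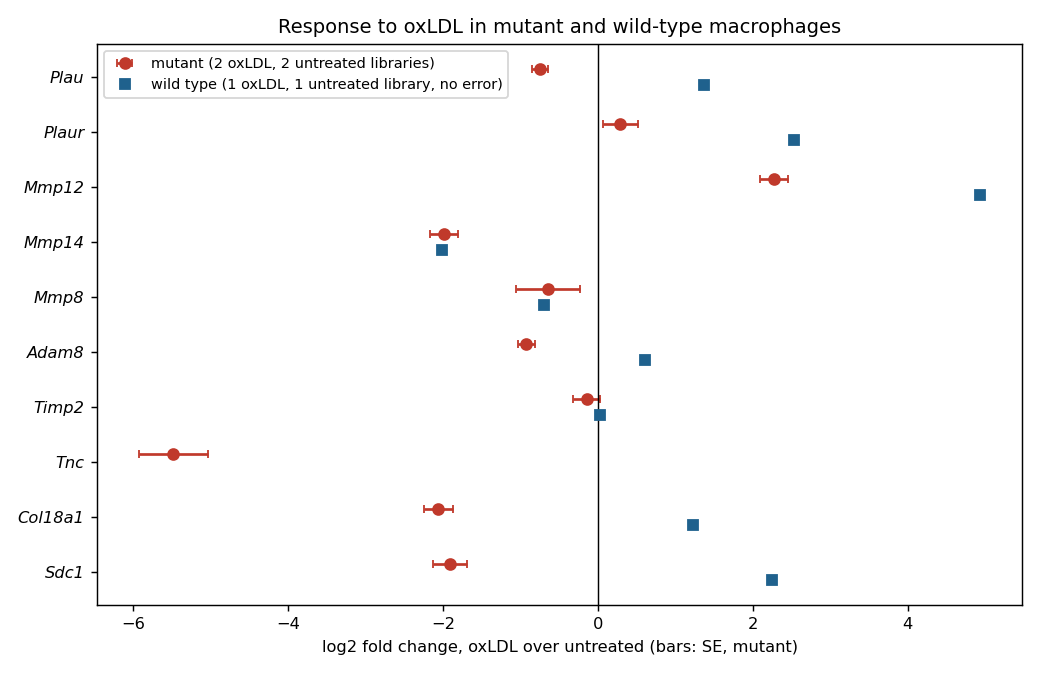
Log2 fold change of oxLDL over untreated for each gene, with circles and SE bars for the mutant (2 against 2 libraries) and squares without error for wild type (1 against 1). Plau, Adam8, Col18a1 and Sdc1 lie left of 0 in the mutant and right of 0 in wild type, and Mmp14 and Mmp8 lie at about the same place in both; the wild-type value of Tnc, at 0 counts with oxLDL, is left out.

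Of the 10 genes, 6 were lower and 1 was higher with oxLDL in the mutant, with 3 not passing a false discovery rate of 0.05. Within either genotype the presence of pancreatic transcripts cannot be told apart from oxLDL. Over all genes tested 35.6% passed, 16.5% higher and 19.1% lower. The median log2 fold change was -0.84 for the 10 genes and 0.01 for all genes. Markers of other cells moved with oxLDL too. Of 7 osteoclast markers 6 were detected, and they summed to 286 and 177 CPM with oxLDL in the mutant against 93.1 and 91.3 CPM without, and to 165 CPM with oxLDL in wild type against 66.5 CPM without, most of the oxLDL sums being Atp6v0d2. Acp5 went the other way, at 4.85 and 9.73 CPM in mutant oxLDL against 17.0 and 43.7 CPM in mutant untreated. In wild type it measured 6.02 CPM with oxLDL against 44.8 CPM without. Mmp9, Ocstamp and Dcstamp were also lower with oxLDL in both genotypes. The levels of Ctsk overlapped in the mutant and were higher with oxLDL in wild type. Calcr was at 0 throughout, and Ocstamp and Dcstamp reached at most 1.05 CPM. The 5 mast cell markers summed to 70.1 and 24.2 CPM in mutant oxLDL against 4.91 and 2.68 CPM in mutant untreated, and to 6.60 CPM in wild type oxLDL against 0.205 CPM in wild type untreated. Nearly all of that was Kit, with Mcpt4 at 0 and Cpa3, Tpsb2 and Ms4a2 at no more than 0.0815 CPM. The 6 endothelial markers summed to 51.3 and 59.8 CPM with oxLDL in the mutant against 25.7 and 38.9 CPM without. In wild type they summed to 49.8 CPM with oxLDL against 60.7 CPM without. Most of this was Kdr and Pecam1, which went opposite ways in both genotypes. Kdr rose to 50.2 and 57.8 CPM in mutant oxLDL against 13.2 and 9.93 CPM in mutant untreated. Pecam1 fell to 0.734 and 1.79 CPM against 11.2 and 27.7 CPM. The part of these markers in the changes of the 10 genes was not tested. In the wild-type pair, by a size of at least 5 CPM and 2-fold, Plau, Plaur, Mmp12, Col18a1 and Sdc1 were higher and Mmp14 lower, 6 of the 10. Of the 9840 genes at that level 19.6% passed, 7.92% higher and 11.7% lower. With genotype as a covariate and 3 libraries against 3, Mmp12 rose (3.10 ± 0.57, adjusted p = 0.00601), Mmp14 fell (-1.999 ± 0.15, adjusted p = 0.000234) and Tnc fell (adjusted p = 0.000267; -5.51 ± 0.43 as fitted, and -2.09 or -4.12 by limma with a pseudocount of 1 or 0.1). Over all genes 40.5% passed in that comparison, 19.1% higher and 21.4% lower. A further fit, chosen after seeing the data, added the presence of pancreatic transcripts as a term. With 4 groups that term is the interaction itself, so the fit does not correct for these transcripts. It gives the mean of the mutant and wild-type responses. That mean passed for 5 of the 10, against 5270 of all 12689 genes: Mmp12, Mmp14, Tnc, Plaur and Plau. For Plaur it was 1.43 ± 0.21 (edgeR adjusted p = 0.00356). For Plau it was 0.31 ± 0.090 (adjusted p = 0.0353), over a fall in the mutant and a rise in the wild-type pair. Without either wild-type library this comparison repeats that of oxLDL in the mutant.

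Without oxLDL, 8 of the 10 genes were higher in mutant than in wild-type cells and none was lower, with Mmp8 and Timp2 not passing. Of all genes tested 7.06% passed, 4.24% higher and 2.82% lower. The median log2 fold change was 1.80 for the 10 genes and -0.01 for all genes. Every one of these rests on 1 wild-type library, in which pancreatic markers summed to 238 CPM and 9 neutrophil markers to 45.2 CPM, where the mutant untreated libraries had 0 and 0.0704 CPM and 6.22 and 7.32 CPM. The pancreatic transcripts cannot be told apart from genotype here, and the part of the neutrophil genes was not tested. Nor was that of the osteoclast markers (93.1 and 91.3 CPM in mutant untreated against 66.5 CPM in wild type untreated) or of the mast cell markers (4.91 and 2.68 CPM against 0.205 CPM). Without mutant untreated replicate 1, 3 of the 8 calls remained, for Plau, Col18a1 and Sdc1, and without replicate 2 also that of Mmp12, 4 in all, at folds that kept their direction.

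With oxLDL none of the 10 differed between the genotypes by edgeR's quasi-likelihood test, where 0.481% of all genes passed. At an unadjusted p under 0.05 there were 6, against 14.3% of all genes. DESeq2 called 4 (Plau and Mmp14 higher in the mutant, Mmp12 and Adam8 lower), beside 391 over all genes. Without a filter on low counts edgeR called 5, beside 974 over all genes. The median log2 fold change was 0.01 for the 10 genes, or -0.03 with Tnc at its bound, and 0.01 for all genes. With either mutant oxLDL library left out, 1 library is left against 1, and the ranges of the counts are given at the end. Across both treatments Mmp14 and Tnc passed as higher in the mutant (Tnc 3.71 ± 0.49, adjusted p = 0.0244), where 4.05% of all genes passed, 2.54% higher and 1.51% lower. Tnc did not pass by limma with a pseudocount of 1 or 0.1, where Mmp14 was the only call. Over all alternatives the log2 fold change of Tnc ran from 1.29 to 4.49. Both edgeR calls ended without mutant untreated replicate 1 and without replicate 2. They also ended without the wild type untreated library, where only the genotype comparison with oxLDL is left. Without the wild type oxLDL library only the one without oxLDL is left, which is given above. A fit with presence of pancreatic transcripts as a further term cannot correct for them, because with 4 groups that term is the interaction itself. Its genotype value is the mean of the differences with and without oxLDL. By this mean 6 of the 10 passed as higher in the mutant, against 1181 of all 12689 genes tested. They were Plau (1.72 ± 0.096), Plaur (1.07 ± 0.22), Mmp14 (1.202 ± 0.16), Col18a1 (0.89 ± 0.17), Sdc1 (1.90 ± 0.21) and Tnc. No size is given for Tnc, since its difference with oxLDL rests on 0 counts in the wild-type library. Adjusted p by edgeR lay between 0.00341 for Plau and 0.0398 for Plaur. For Plaur, Col18a1 and Sdc1 the mean is over differences of opposite sign.

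**Figure D3:**
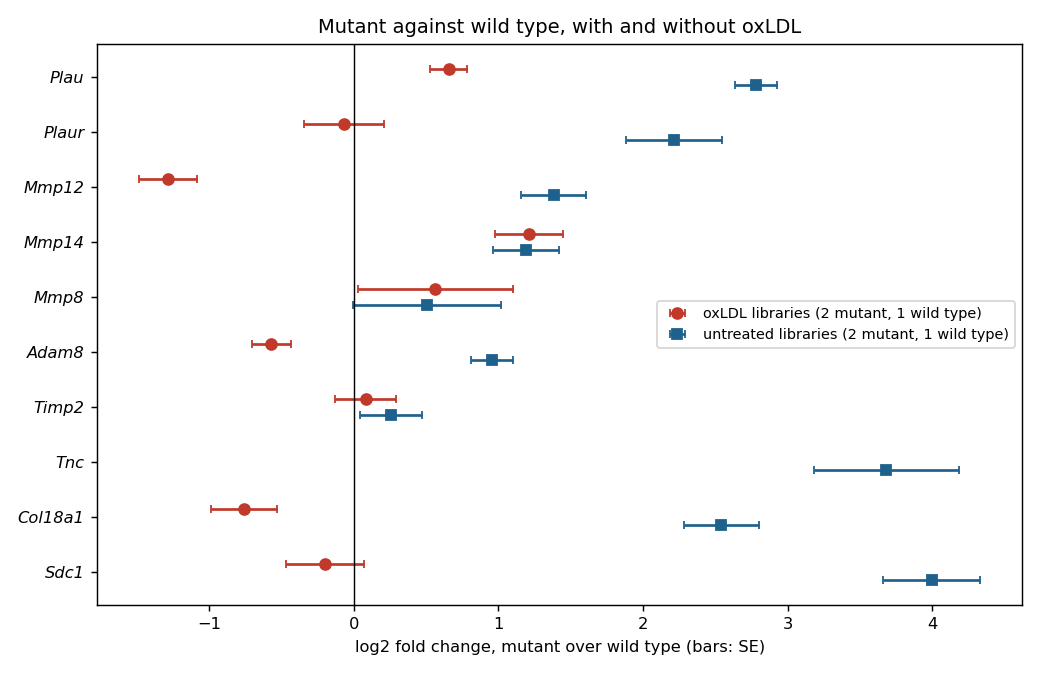
Log2 fold change of mutant over wild type for each gene, with circles for the oxLDL libraries and squares for the untreated ones (2 mutant against 1 wild type each), bars showing SE. Without oxLDL the values run from 0.26 (Timp2) to 3.99 (Sdc1), and with oxLDL from -1.29 (Mmp12) to 1.21 (Mmp14); the oxLDL value of Tnc, at 0 counts in wild type, is left out.

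The response to oxLDL itself differed between genotypes for 4 of the 10 genes, Plau, Mmp12, Col18a1 and Sdc1, all lower in the mutant relative to wild type, where 0.489% of all genes passed and 0.299% in that direction. This comparison and the one without oxLDL share the wild type untreated library. Of the 10 genes, 3, Adam8, Col18a1 and Sdc1, were lower in all 3 libraries with pancreatic transcripts than in all 3 without, as were 2.35% of all genes tested. Without mutant untreated replicate 1 the call of Sdc1 alone remained, and without replicate 2 those of Sdc1 and Mmp12.

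For 8 of the 10 genes the highest minus lowest log2(CPM + 1) was smaller over the 3 oxLDL libraries than over the 3 untreated ones, as it was for 62.5% of all genes. Tnc is one of the 8, and its oxLDL range is set by counts of 4, 3 and 0 and by the pseudocount; without it the count was 7 of 9. Sdc1 ranged 1.18-fold over the oxLDL libraries and 19.3-fold over the untreated ones, Plau 1.69-fold and 6.90-fold, and Col18a1 1.88-fold and 6.64-fold. Mmp14 and Mmp8 were the exceptions, with 2.72-fold and 2.45-fold over the oxLDL libraries against 2.43-fold and 1.57-fold over the untreated ones. The median range of the 10 genes was 0.69 with oxLDL and 1.75 without, in log2 units, beside 0.28 and 0.37 for all genes.

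**Figure D4:**
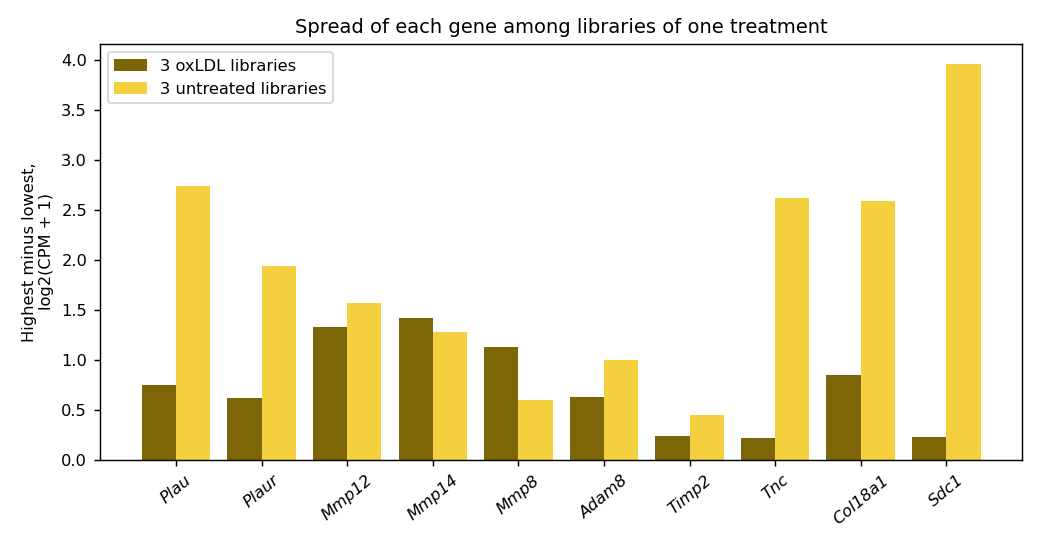
Highest minus lowest log2(CPM + 1) of each gene over the 3 oxLDL libraries (dark bars, 2 mutant and 1 wild type) and over the 3 untreated libraries (light bars, 2 mutant and 1 wild type). The bars of Sdc1, Plau, Tnc and Col18a1 are shorter for the oxLDL libraries, and those of Mmp14 and Mmp8 are longer.

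Other genes of proteolysis and matrix were followed in 8 lists by role, 187 genes of which 121 were tested. With oxLDL in the mutant 25 rose and 34 fell, 48.8% called against 35.6% of all genes, with a median log2 fold change of -0.11. The count of 59 was 31 without mutant untreated replicate 2. Of 14 genes around plasminogen and its cell-surface receptors 2 rose and 3 fell. Procr, listed here although it encodes the endothelial protein C receptor and not one of plasminogen, rose 3.96-fold in the mutant. It measured 51.2 and 47.8 CPM in mutant oxLDL against 11.5 and 13.2 CPM in mutant untreated. In wild type it measured 124 CPM with oxLDL against 4.45 CPM without. Anxa2, whose product binds plasminogen at the cell surface, fell 1.58-fold (adjusted p = 0.00450).

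Of 9 further metalloproteinases Mmp19 rose 1.89-fold (adjusted p = 0.00244) and the gelatinase gene Mmp9, at no more than 4.51 CPM, fell 6.25-fold (adjusted p = 0.0329). Reck, a membrane-anchored metalloproteinase inhibitor, fell 2.29-fold from a low level, at 1.34 and 1.14 CPM in mutant oxLDL against 2.63 and 3.03 CPM in mutant untreated. Of 17 ADAM and ADAMTS genes 6 fell and 2 rose. Adam17, the sheddase of TNF, fell 2.24-fold (adjusted p = 0.000943) and Adamtsl5 rose 3.35-fold (adjusted p = 0.00692). Of 18 cathepsins and cystatins 7 rose and 4 fell, with a median log2 fold change of 0.46. Among those that fell were legumain, Lgmn (2.16-fold), and the dipeptidyl peptidase Ctsc (4.04-fold).

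Of 23 matricellular and fibrillar matrix genes 4 rose and 5 fell, led by Tgfbi, an integrin ligand, at 97.2 and 150 CPM in mutant oxLDL against 943 and 1190 CPM in mutant untreated (8.72-fold lower), and Lgals9 (2.22-fold lower). Of 11 basement membrane genes, the class of Col18a1, 6 fell and 1 rose, with a median of -1.02. The collagen IV gene Col4a5 fell 6.83-fold (adjusted p = 0.000808) and the laminin gene Lamc1 rose 1.55-fold (adjusted p = 0.00393). Of 27 genes of proteoglycans, hyaluronan and heparan sulfate 8 rose and 8 fell. The xylosyltransferase gene Xylt2, which starts the chains that syndecans carry, fell 5.39-fold, and the syndecan gene Sdc3 2.94-fold.

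Without oxLDL 12 of the 121 were higher in mutant than in wild-type cells and 2 lower, 11.6% against 7.06% of all genes. The count was 1 without mutant untreated replicate 1, 5 without replicate 2, and 28 and 27 without mutant oxLDL replicate 1 and 2. Those with the smallest p in their list were S100a10 (annexin A2's partner, 2.88-fold higher), Mmp19 (1.98-fold), Adam17 (1.53-fold), Ctsf (2.47-fold), Lamc1 (2.06-fold) and Cspg4 (21.6-fold). Cspg4, the NG2 proteoglycan gene, measured 44.8 and 78.2 CPM in mutant untreated against 2.87 CPM in wild type untreated. With oxLDL 2 of the 121 differed between genotypes, Procr (-1.32 ± 0.13, adjusted p = 0.0293) and Ctsf (2.11 ± 0.21, adjusted p = 0.0293), and without mutant untreated replicate 1 there were 0.

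**Figure D5:**
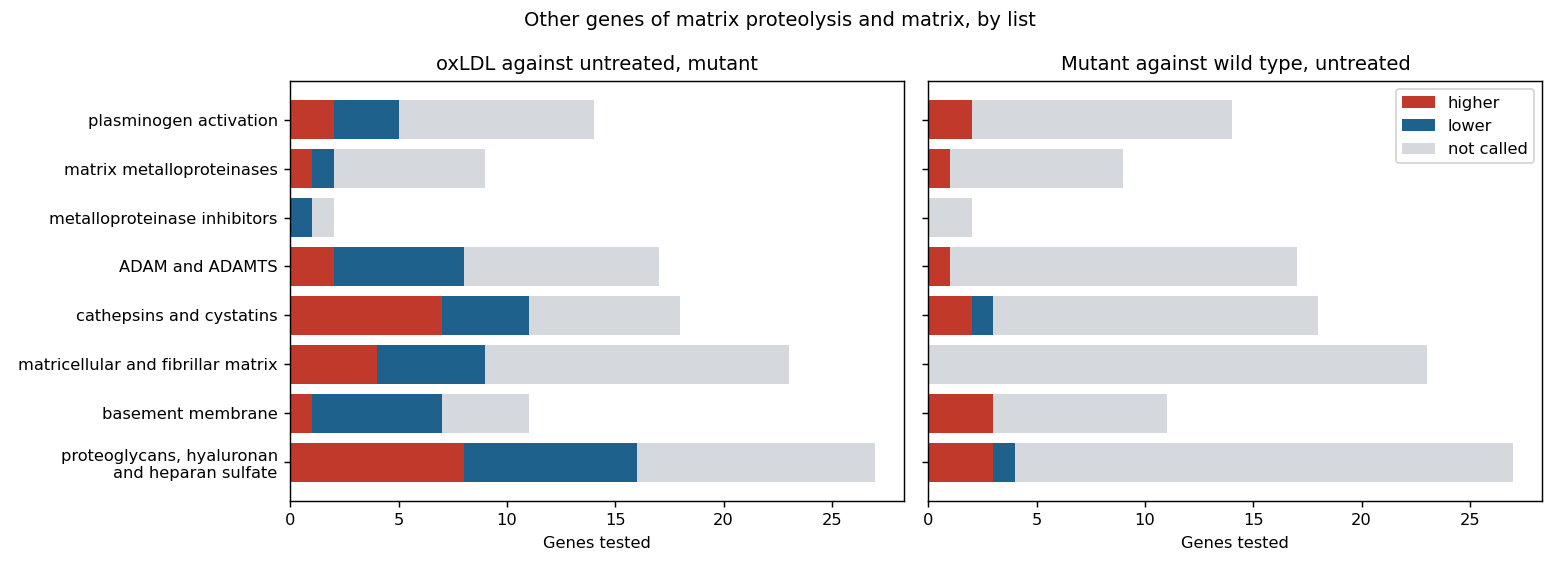
Number of genes tested in each of the 8 lists (horizontal axis), split into higher, lower and not called at a false discovery rate of 0.05, for oxLDL against untreated in the mutant (left) and for mutant against wild type without oxLDL (right). Basement membrane genes show 6 lower and 1 higher with oxLDL, and 3 higher in the mutant without it.

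Among the 130 other genes of these lists and the members themselves, Mmp12 was most like Procr over the 6 libraries (Pearson r of log2(CPM + 1) = 0.992) and Tnc most like the collagen IV gene Col4a2 (0.991), whose levels were at most 1.41 CPM. Plau (0.984) and Sdc1 (0.938) were both most like Cd44, the hyaluronan receptor gene. Mmp14 was most like Reck (0.976) and Adam8 and Col18a1 most like each other (0.956). Plaur was nearest to the sulfotransferase gene Hs6st1 (0.976), Mmp8 to the sulfatase gene Sulf2 (0.968) and Timp2 to the fibrillin gene Fbn1 (0.849). These are descriptions over 6 libraries that share treatment, genotype and pancreatic transcripts.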

How the data were processed

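Polyadenylated RNA (250 ng total RNA input, stranded kit, 150-base paired ends) was sequenced in 6 libraries, per the labels' protocols. Per the submitters' processing notes, the tools were Bowtie2 2.1.0, RSEM 1.2.15 and edgeR; the notes name the human build hg19 although the gene symbols are those of mouse. The authors deposited expected counts per gene, which may hold fractions, and a normalised signal made with edgeR (TMM-scaled CPM). That signal steps in whole reads in 100% of values (tolerance 1e-06), and in every library at least 99.89% of genes had the same number of reads as their rounded expected count.

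Expected counts were rounded, and 12689 genes passing filterByExpr went into edgeR 4.0.16 (R 4.3.3; quasi-likelihood test) with TMM factors and Benjamini-Hochberg adjustment, called under 0.05. Contrasts of 4 group means gave the effect of oxLDL in the mutant, of genotype at each treatment and their interaction, and an additive model the comparisons across genotypes and treatments. For the 2 lone wild-type libraries the fit takes the spread of the mutant pairs. SE is the log2 fold change divided by the root of its F statistic. The wild-type pair was described by size with a prior count of 2. The fit was tested on simulated data. Alternatives were DESeq2 1.42.0, limma 3.58.1 on log2 of the deposited signal plus 1 or 0.1, other size factors and filters, each library left out, a replicate block, recovered reads and a term for pancreatic transcripts.

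The members and lists were chosen with earlier results of these data known. Named list genes were, per list, at most 2 with the smallest p for oxLDL in the mutant and 1 for genotype without oxLDL; genes outside that rule were named after their values were seen. Of each member's 75-base stretches at most 0.13% occur in transcripts of other genes (GENCODE M21).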

Additional observations from a re-analysis of the deposited data

Results flagged for a closer look

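The response to oxLDL differed between the mutant (2 against 2 libraries) and wild type (1 against 1) by the interaction term of edgeR for 4 of the 10 genes and 2 of the 121 others. Over all genes tested 0.489% passed. As mutant response minus wild-type response in log2 units, the difference was -2.13 for Plau, -2.67 for Mmp12, -3.30 for Col18a1 and -4.19 for Sdc1. It was -2.81 for Procr (adjusted p = 0.0140) and -1.68 for S100a10 (adjusted p = 0.0343). The 3 libraries with pancreatic transcripts are aligned with this term, and these cannot be told apart.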

How the results depend on the processing

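Counts over all genes, the 10 genes and the 121 others are given in that order. Without a wild-type library the comparison across genotypes or across treatments repeats the one within a single arm. With each library left out in turn they ranged over 2626 to 4529, 7 to 8 and 31 to 60 for oxLDL in the mutant; 3480 to 4529, 3 to 7 and 41 to 60 for oxLDL across genotypes; 80 to 1822, 3 to 8 and 1 to 28 for genotype without oxLDL; 5 to 473, 0 to 2 and 0 to 5 for genotype with oxLDL; 8 to 877, 0 to 8 and 0 to 12 for genotype across treatments; and 19 to 246, 1 to 6 and 1 to 5 for the interaction. Without a filter on low counts, genotype without oxLDL gave 2435 over all genes and 40 of the others, genotype with oxLDL 974, 5 and 14, genotype across treatments 1387 and 22 of the others, and the interaction 546, 6 and 16. DESeq2 gave 391, 4 and 7 for genotype with oxLDL, 1513 and 22 of the others across treatments, and 221, 6 and 5 for the interaction. limma with a pseudocount of 0.1 gave 113 genes for genotype with oxLDL, and with either pseudocount 1 of the 10 across treatments. The term for pancreatic transcripts, added after seeing the data, gave 5 of the 10 for oxLDL across genotypes, and 1181, 6 and 17 for genotype across treatments. With 4 groups that term equals the interaction, so these counts are for means over both arms and are not corrected for those transcripts. In the wild-type pair 2946 genes passed a quasi-likelihood fit, against 1926 by size.

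The labels do not say that replicate numbers mark a shared animal. Deviations of replicate 1 in the 2 mutant groups correlated at 0.264 over 12689 genes, and a replicate block raised the interaction calls to 162, with 6 of the 10 (against 4) and 5 of the others. It gave 7 of the 10 for oxLDL in the mutant.

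Signs that turned were of values that had not passed in the main fit. Among the turned values, that of Plau for oxLDL across genotypes with the pancreatic term passed. So did that of Mmp12 for genotype across treatments without the wild type oxLDL library, which repeats genotype without oxLDL. With each library left out, oxLDL in the mutant ranged from -0.078 to 0.58 for Plaur and from -0.35 to 0.099 for Timp2, and oxLDL across genotypes from -0.756 to 0.23 for Plau and -0.192 to 0.064 for Timp2. Genotype with oxLDL ranged from -0.43 to 0.23 for Plaur, -0.23 to 1.07 for Mmp8 and -0.039 to 0.203 for Timp2. Genotype across treatments ranged from -0.062 to 2.21 for Plaur, -1.28 to 1.38 for Mmp12, -0.56 to 0.956 for Adam8, -0.76 to 2.54 for Col18a1 and -0.19 to 3.99 for Sdc1. The interaction ranged from -0.25 to 0.247 for Mmp14, -0.74 to 0.555 for Mmp8 and -0.366 to 0.082 for Timp2. The fit with the pancreatic term, a mean over both arms, gave 0.31 for Plau and 0.19 for Sdc1 for oxLDL across genotypes. For genotype across treatments it gave 0.049 for Mmp12, where limma gave 0.028 and 0.035. The interaction of Mmp8 was -0.047 with the block and -0.0697 by limma with either pseudocount, and that of Tnc -2.17 and -2.09 by limma. The cause was not tested.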
